A study of Rattus norvegicus with 6 samples.

Results

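The genes described here are 8 genes of plasminogen activation and of tissue factor, the receptor that starts blood coagulation: F3, Tfpi, Tfpi2, Plaur, Plat, Plau, Serpine2 and Serpinf1. They were picked by name, with the results of the comparison of stiff with soft gel in the same table already known, so their values in that comparison are a description. Where the fit across all genes called one of them, the call is stated as that fit's outcome and supports nothing. Each name occurred in 1 of the 33589 rows of the deposited gene table, and all 8 passed the filter on level, a mean of 1 FPKM or more (fragments per kilobase, adjusted for library size), as did 12713 rows in all. The study measured polyA RNA of mesenchymal stem cells (MSCs, stromal cells able to form bone, cartilage and fat) from rat bone marrow. Stiff libraries came from cells held 48 h in a hydrogel of 18 kPa that the labels call SA, and Soft libraries from cells held 48 h in the same kind of gel at 2 kPa, with 3 libraries per group. Both groups were kept in low-glucose medium with serum and antibiotics, and cells were taken out of the gel before RNA was prepared. The sources used here give no strain, age or number of animals, and do not say whether libraries came from separate cultures; the series text mentions quadruplicates, whereas each group used here has 3 libraries. The p-values below therefore speak of the spread among these libraries alone, and that spread may be technical.

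Plasmin is the protease that dissolves fibrin and opens pericellular matrix. It is cut from plasminogen by the tissue-type activator (Plat) or by urokinase (Plau), which is held at the cell surface by its receptor (Plaur), and serpins such as Serpine2 trap these activators. Tissue factor (F3) binds factor VII to start clotting and is restrained by the Kunitz-type inhibitor Tfpi, while the related Tfpi2 mainly inhibits plasmin and trypsin in the matrix.

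Reads recovered from the FPKM came to between 14966354 and 16711527 per library. Soft replicate 1 stood apart by its mitochondrial share of reads, 2.15%, where the remaining 5 libraries had 2.85% to 3.33%. All 11 mesenchymal stromal markers examined passed the filter, with Lum at 3749 ± 231 FPKM in Stiff and 3544 ± 429 in Soft, Col1a1 at 3579 ± 314 and 3061 ± 373, and Dcn at 884 ± 56.8 and 919 ± 79.4 (SD, n = 3 each). Defining endothelial markers were at or near 0, as Cldn5 had no read in any library and Cdh5 at most 2, and 8 of 9 genes of that list had a mean under 1 FPKM. Leukocyte markers were present, with Lyz2 at 119 ± 8.38 FPKM in Stiff and 149 ± 3.51 in Soft, Cd14 at 60.5 ± 0.405 and 59.6 ± 2.48, and Fcer1g at 41.2 ± 5.66 and 46.4 ± 0.609.

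Tissue factor was the gene of the 8 with the largest difference between the gels. F3 (ENSRNOG00000011800, chromosome 2 from 225310624 to 225322272 on the plus strand, as given in the table, with no build named there) had 56.0, 60.9 and 60.5 FPKM in Stiff libraries, against 38.2, 41.5 and 42.3 FPKM in Soft libraries. Every Stiff library lay above every Soft library. Its mean was 59.1 ± 2.69 FPKM in Stiff and 40.7 ± 2.19 FPKM in Soft (SD, n = 3 each), a ratio of 1.45 and a difference of 0.53 on the log2(FPKM + 1) scale (SE 0.0625). Between 1168 and 1845 reads per library stood behind these values. In the fit across all genes, F3 was among the 1.01% of tested genes called higher in Stiff (adjusted p under 0.05 in limma), from which nothing is read, and that call ended in 5 of the 6 fits that left out 1 library, namely without Stiff replicate 1, 2 or 3 and without Soft replicate 2 or 3, while the difference itself stayed between 0.49 and 0.57. F3 is also counted among the targets of TEAD, the DNA-binding partners of YAP and TAZ.

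For Tfpi, the classical inhibitor of tissue factor, the gels overlapped. Tfpi (ENSRNOG00000005039, chromosome 3 from 71852744 to 71893618, minus strand) had 20.2, 24.1 and 21.2 FPKM in Stiff libraries and 18.5, 23.0 and 22.1 FPKM in Soft libraries. Its means were 21.8 ± 2.01 FPKM in Stiff and 21.2 ± 2.40 FPKM in Soft (SD, n = 3 each). The log2 difference of 0.04 was smaller than its standard error and changed sign at equal FPKM sums, with array weights, and without Stiff replicate 2 or Soft replicate 1.

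Tfpi2 (ENSRNOG00000010513, chromosome 4 from 28947965 to 28953067, minus strand) was the member with the largest difference in the other direction. It had 20.7, 22.5 and 21.4 FPKM in Stiff libraries, against 25.2, 31.1 and 32.1 FPKM in Soft libraries. All Stiff libraries lay below all Soft libraries, of which Soft replicate 1 was the lowest. The means were 21.5 ± 0.888 FPKM in Stiff and 29.5 ± 3.71 FPKM in Soft (SD, n = 3 each), a ratio of 0.730 and a log2 difference of -0.43 (SE 0.0952). Tfpi2 was not among the called genes in the fit over all libraries (limma adjusted p = 0.0908). It was called with array weights, with voom on recovered reads, and without Soft replicate 1, at a difference of -0.53 in that last fit. Of the macrophage and leukocyte markers, 11 of 12 were in the table and 2 of the 10 tested were called lower, Cd68 and Cd53, with none called higher, where 0.425% of all tested genes were called lower. The tested markers not called had log2 differences from -0.32 for Lyz2 to 0.14 for Aif1. Csf1r was at 0.01 and Ptprc at -0.11, and 3 of the 10 lay above 0. The summed level of this list ran from 295 to 328 FPKM in Stiff libraries and from 362 to 368 FPKM in Soft libraries, and none of its genes was at 0 in all libraries. In bulk samples fewer cells of a type and less RNA per cell cannot be told apart, and the part of such cells in the Tfpi2 values was not tested.

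**Figure D1:**
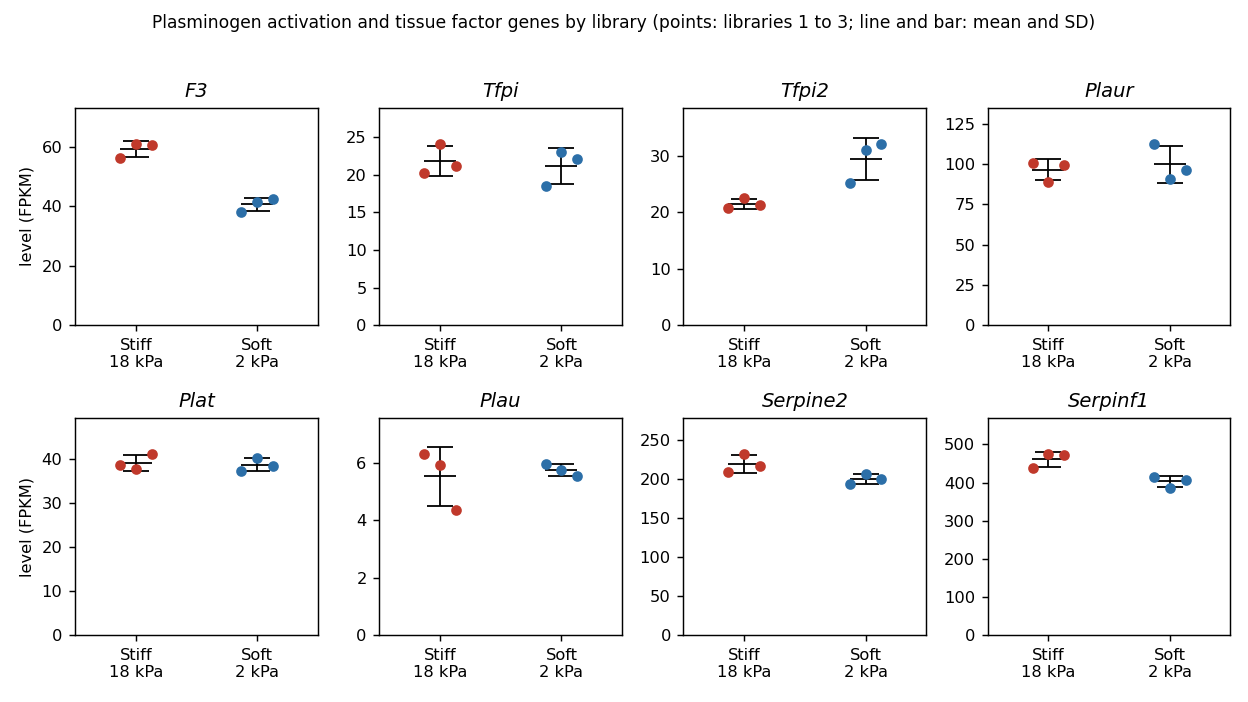
Level in FPKM (vertical axes, each from 0) of the 8 genes in each library of Stiff (red, left) and Soft (blue, right); points are libraries 1 to 3, and the line and bar are the mean and SD. F3 was at 56.0 to 60.9 FPKM in Stiff and 38.2 to 42.3 FPKM in Soft, Tfpi2 at 20.7 to 22.5 and 25.2 to 32.1 FPKM, and the ranges of Tfpi, Plaur, Plat and Plau overlapped between the gels.

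For both plasminogen activators and the urokinase receptor the ranges of the gels overlapped. Plat (ENSRNOG00000019018, chromosome 16 from 74098260 to 74122889, minus strand) had 38.6, 37.8 and 41.1 FPKM in Stiff libraries and 37.4, 40.3 and 38.5 FPKM in Soft libraries. Its means of 39.2 ± 1.73 and 38.7 ± 1.47 FPKM (SD, n = 3 each) differed by 0.01 on the log2 scale (SE 0.0581), and the sign changed on recovered reads, under both rescalings, and without Stiff replicate 3 or Soft replicate 1. Plau (ENSRNOG00000010516, chromosome 15 from 3644769 to 3650819, minus strand) was the lowest of the 8, with 6.30, 5.94 and 4.36 FPKM in Stiff libraries and 5.97, 5.76 and 5.54 FPKM in Soft libraries. Stiff replicate 3 alone lay below the Soft range, and without it the log2 difference turned to 0.08, against -0.06 (SE 0.123) in all libraries. Plau rested on 137 to 188 reads per library, so that counting alone gives a relative error of 8.54% at the fewest reads, against 2.62% for Plat.

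Plaur (ENSRNOG00000037931, chromosome 1 from 81328183 to 81344708, plus strand) had 100.9, 89.1 and 99.3 FPKM in Stiff libraries and 112, 90.7 and 95.9 FPKM in Soft libraries. The groups overlapped, and Soft replicate 1, the library that stood apart, was the highest. The log2 difference was -0.04 (SE 0.0899), but 0.04 without that library, 0.01 without Stiff replicate 2 and 0.03 with array weights. Receptor transcripts per kilobase exceeded those of urokinase in every library, by ratios of 16.0, 15.0 and 22.7 in Stiff and 18.8, 15.7 and 17.3 in Soft.

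The 2 serpins were the most abundant of the 8 genes. Serpinf1 encodes PEDF, a secreted serpin that limits angiogenesis and does not act as a protease inhibitor. Serpinf1 (ENSRNOG00000003172, chromosome 10 from 62241756 to 62254287, minus strand) had 438, 474 and 472 FPKM in Stiff libraries, against 416, 386 and 407 FPKM in Soft libraries. The groups did not overlap, and the means of 461 ± 20.0 FPKM in Stiff and 403 ± 15.6 FPKM in Soft (SD, n = 3 each) gave a ratio of 1.14 and a log2 difference of 0.19 (SE 0.0536). Serpine2 encodes protease nexin 1, which inhibits thrombin, urokinase and the tissue-type activator. Serpine2 (ENSRNOG00000015461, chromosome 9 from 85560863 to 85626094, minus strand) had 209, 232 and 217 FPKM in Stiff libraries, against 194, 207 and 201 FPKM in Soft libraries. These groups lay side by side without overlap, and the log2 difference was 0.13 (SE 0.0555), a ratio of 1.09. After quantile normalization both serpins moved closer to 0, to 0.10 for Serpinf1 and 0.06 for Serpine2, with neither called under any alternative.

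Of the 8 genes, limma called 1 higher in Stiff, F3, and none lower, where 1.43% of the 12713 tested genes were called in either direction (1.01% higher and 0.425% lower). Voom on recovered reads called 1 of them higher, F3, and 1 lower, Tfpi2, where it called 1.49% of all tested genes higher and 0.999% lower. The groups did not overlap in 4 of the 8, with 3 higher in Stiff and 1 lower, against 22.6% of all tested genes. Because the genes were picked with this comparison known, nothing is read from these counts. Over all genes 128 were called higher and 54 lower, a split of 88 and 68 at equal FPKM sums and of 103 and 68 after quantile normalization.

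**Figure D2:**
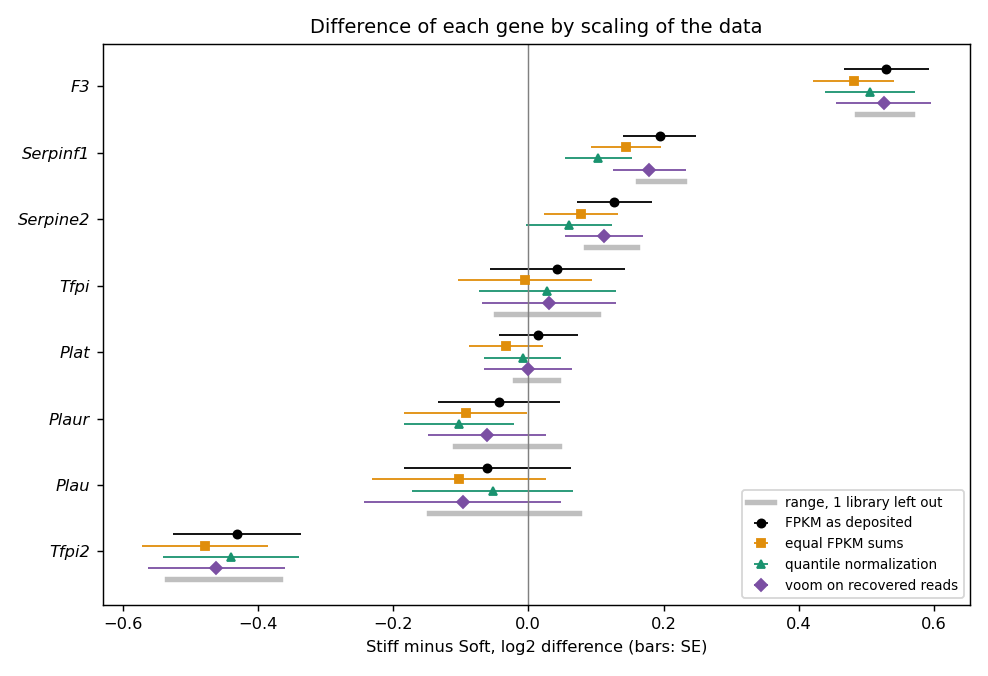
Stiff minus Soft on the log2 scale (horizontal axis; bars are SE) for the 8 genes as deposited, at equal FPKM sums, after quantile normalization and on recovered reads; grey lines give the range over the 6 fits that left out 1 library. F3 stayed between 0.48 and 0.53 in the 4 scalings and Tfpi2 between -0.48 and -0.43, while Tfpi and Plat straddled 0.

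The order of mean levels (FPKM, per kilobase) was the same in both gels except for 1 pair. In Stiff it ran Serpinf1, Serpine2, Plaur, F3, Plat, Tfpi, Tfpi2 and Plau, and in Soft the same with Tfpi2 above Tfpi. In Stiff libraries F3 lay clear of Plat, and Tfpi and Tfpi2 had overlapping ranges. In Soft libraries F3 and Plat had overlapping ranges, and Tfpi2 lay clear of Tfpi. Among all tested genes, the mean level of Serpinf1 stood at the 98.9th percentile and that of Plau at the 33.0th.

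Ratios taken within a library set the pairs side by side. F3 was 2.71, 2.71 and 2.83 times Tfpi2 in Stiff libraries, against 1.51, 1.33 and 1.32 times in Soft libraries. Set against the sum of both inhibitors, Tfpi and Tfpi2, the ratio was 1.37, 1.31 and 1.42 in Stiff libraries and 0.873, 0.766 and 0.781 in Soft libraries. Every Stiff library thus had a higher FPKM of F3 than of Tfpi and Tfpi2 summed, and every Soft library a lower one. That crossing depends on adding Tfpi2, which mainly inhibits plasmin and trypsin. F3 exceeded Tfpi alone in every library of both gels. In Stiff libraries F3 had 56.0, 60.9 and 60.5 FPKM against 20.2, 24.1 and 21.2 for Tfpi. In Soft libraries the values were 38.2, 41.5 and 42.3 against 18.5, 23.0 and 22.1 FPKM. These are transcript levels and not amounts of protein. The ratio of Tfpi2 to Tfpi was 0.988 ± 0.0489 in Stiff and 1.39 ± 0.0561 in Soft (SD, n = 3 each). Tissue factor set against the tissue-type activator, F3 over Plat, was 1.51 ± 0.0870 in Stiff and 1.05 ± 0.0441 in Soft. Serpine2 was 4.66, 5.31 and 4.77 times the sum of Plat and Plau in Stiff libraries, against 4.47, 4.49 and 4.57 times in Soft libraries, with no overlap. These ratios rest on the same values as the levels and add no separate evidence.

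**Figure D3:**
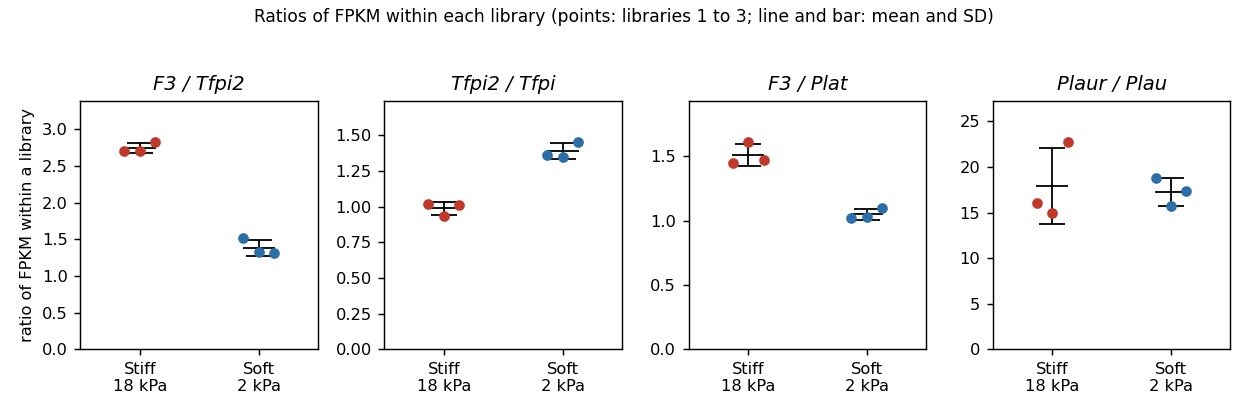
Ratio of FPKM within a library (vertical axes, each from 0) for 4 pairs of genes in Stiff (red, left) and Soft (blue, right); points are libraries 1 to 3, and the line and bar are the mean and SD. F3 over Tfpi2 was 2.71 to 2.83 in Stiff and 1.32 to 1.51 in Soft, F3 over Plat was 1.45 to 1.61 and 1.02 to 1.101, and Plaur over Plau overlapped between the gels.

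The other genes of these pathways were taken from 7 lists by role with 88 genes, of which 86 were in the table and 52 passed the level filter. With limma, 4 of the 52 were called higher in Stiff and 1 lower, where 1.01% of all tested genes were called higher and 0.425% lower. All 4 higher calls were in the list of TEAD cofactor targets, which was added because F3 is one, so that the other 6 lists held no higher call. The median log2 difference of the 52 was 0.07, against 0.00 over all tested genes. Counts at an unadjusted p under 0.05, given below beside lists without a call, stand against 15.4% of all tested genes, and counts of voom calls against 2.49%.

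Among the other inhibitors and serpins, 4 of 9 genes in the table passed the filter and limma called none, with 3 at an unadjusted p under 0.05 and 0 calls by voom. Serpinh1, a collagen chaperone of the serpin family, was at 430.2 ± 26.8 FPKM in Stiff and 385 ± 23.7 FPKM in Soft (SD, n = 3 each). Serping1, the inhibitor of complement C1 proteases and kallikrein, was at 257 ± 9.28 and 265 ± 3.81 FPKM. Plasminogen itself, Plg, had at most 5 reads in a library, and its receptors and clearance receptors gave no limma call among 13 tested, with 4 at an unadjusted p under 0.05 and 0 calls by voom. Of these, Eno1, a glycolytic enzyme that also binds plasminogen, was at 1043 ± 29.4 FPKM in Stiff and 991 ± 53.7 FPKM in Soft. Anxa2, which assembles plasminogen and Plat at the cell surface, was at 730.2 ± 25.0 and 714 ± 9.67 FPKM (SD, n = 3 each). Lrp1, the endocytic receptor that clears inhibitor complexes, had 543, 484 and 462 FPKM in Stiff libraries, against 693, 572 and 585 FPKM in Soft libraries. The Lrp1 groups did not overlap, but its log2 difference of -0.31 (SE 0.0914) did not pass the limma test (adjusted p = 0.178).

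Of plasmin's substrates and partner proteases, 7 of 16 passed the filter, and Mmp14, a membrane-bound collagenase, fell (log2 difference -0.38, SE 0.0535, limma adjusted p = 0.0236). Mmp14 had 870, 858 and 859 FPKM in Stiff libraries, against 1201, 1074 and 1101 FPKM in Soft libraries. Its call held without Soft replicate 1 and was lost without any of the other 5 libraries, with no level filter and with no trend in the variance, where adjusted p reached at most 0.109. Voom also called Mmp2 lower.

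Coagulation factors and vitamin K cycle genes gave no limma call among 8, with 4 at an unadjusted p under 0.05, and voom called 1 lower, Tgm2, a transglutaminase. F7, the plasma partner of tissue factor, had no read in any library, which allows up to 0.108 FPKM at 3 reads in the shallowest library, for counting error only, and F10 had 1 read in all. F5 was at 13.2 ± 1.07 FPKM in Stiff and 11.6 ± 1.46 FPKM in Soft, and F8 at 8.52 ± 0.434 and 10.0 ± 0.961 FPKM. Their log2 differences had opposite signs, 0.18 for F5 and -0.21 for F8. P4hb, the protein disulfide isomerase, was at 766 ± 22.9 FPKM in Stiff and 715 ± 7.44 FPKM in Soft, and Lman1, a cargo receptor for coagulation factors, at 60.9 ± 1.58 and 56.5 ± 0.766 FPKM (SD, n = 3 each). The list of anticoagulant genes gave no limma call among 7, with 4 at an unadjusted p under 0.05 and 0 calls by voom. Gas6, a vitamin K dependent ligand of TAM receptors, was on that list but is not read here as an anticoagulant. Its level was 238 ± 12.5 FPKM in Stiff and 267 ± 17.9 FPKM in Soft. Anxa5, which shields anionic phospholipid, was at 191 ± 9.56 and 169 ± 6.24 FPKM.

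Of 4 protease-activated receptors 2 passed the filter. F2r, the main thrombin receptor, had 22.1, 21.8 and 21.5 FPKM in Stiff libraries, against 14.7, 17.7 and 16.3 FPKM in Soft libraries. All Stiff libraries lay above the Soft ones, and the log2 difference of 0.41 (SE 0.0750) missed the threshold in limma (adjusted p = 0.0530) and passed with voom, with array weights and at a filter of 5 FPKM. F2rl2 was at 2.71 ± 0.244 FPKM in Stiff and 2.11 ± 0.177 FPKM in Soft (log2 difference 0.26, limma adjusted p = 0.309). No call came from limma in this list (2 at an unadjusted p under 0.05, 1 with voom).

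TEAD cofactor targets, listed because F3 is one, were called higher in 4 of 11 tested members and lower in none, against 1.01% and 0.425% of all tested genes. The list was chosen with earlier results of these data known, and its count is no independent evidence of its direction. Ccn2 and Ccn1, which encode matricellular proteins, rose by 0.94 and 0.49 on the log2 scale (limma adjusted p = 0.000673 and 0.00747). Ccn1 lost its call without Stiff replicate 1 and without Soft replicate 3, where its adjusted p was 0.0546 and 0.0536. Amotl2, an angiomotin family member that restrains YAP, rose to 39.3 ± 1.48 FPKM in Stiff, against 26.9 ± 2.23 FPKM in Soft (SD, n = 3 each; log2 difference 0.53, limma adjusted p = 0.0206). Axl, a receptor tyrosine kinase that binds Gas6, rose to 92.6 ± 1.30 FPKM in Stiff, against 77.4 ± 1.30 FPKM in Soft (log2 difference 0.25, limma adjusted p = 0.0473). The Amotl2 call held in 1 of the 6 fits that left out 1 library, the one without Soft replicate 1, and the Axl call in none. Axl also lost its call under both rescalings, with no trend in the variance and with the replicate block, and its adjusted p reached at most 0.191. The median of the TEAD cofactor targets was 0.14, with 8 of the 11 tested above 0. Those not called ran from -0.16 for Dock5 to 0.15 for Nt5e. Of the smooth muscle and pericyte markers, 3 of 8 tested were called higher, Acta2, Tagln and Cnn1, where 1.01% of all tested genes were, and the other 5 were not called, with log2 differences from -0.04 for Notch3 to 0.18 for Myh11. The list sum was 513 to 573 FPKM in Stiff and 240.1 to 277 FPKM in Soft, Rgs5 was at 0, and their part in the F3 values was not tested.

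**Figure D4:**
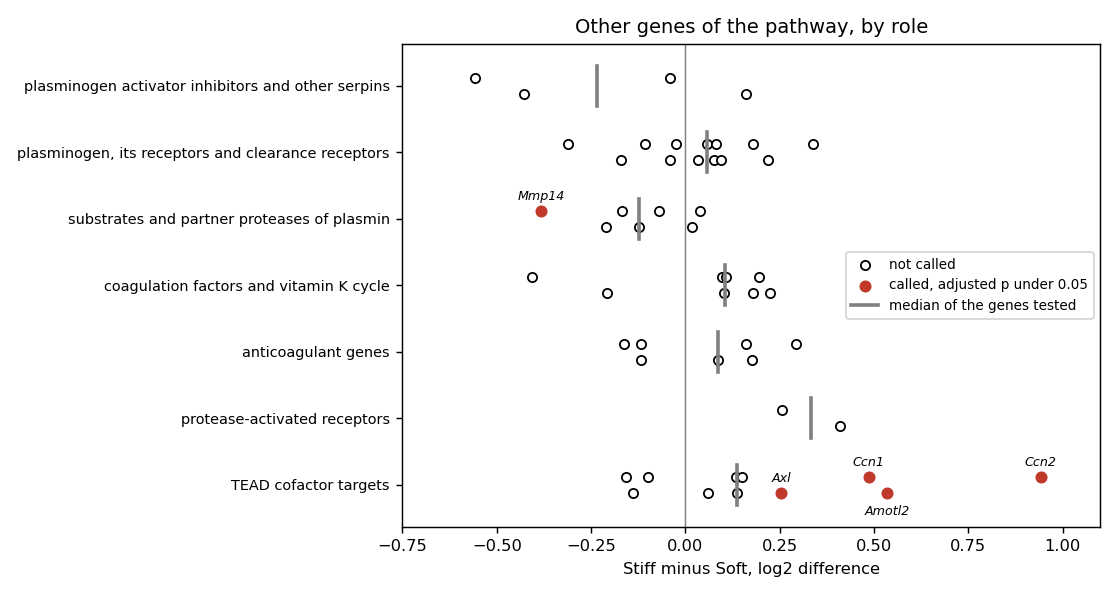
Stiff minus Soft on the log2 scale (horizontal axis) for the 52 tested genes of the 7 role lists (rows); each circle is a gene, filled where limma called it, and grey bars are list medians. The 4 TEAD cofactor targets Ccn2, Ccn1, Amotl2 and Axl were called higher and Mmp14 at -0.38 was called lower.

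By the highest Pearson r over the 6 libraries among 8874 genes averaging 5 FPKM or more, the patterns most like that of F3 were those of Rpl10 (r = 0.999), Gpr176 (r = 0.999) and Serp1 (r = 0.996). For Tfpi2 these were Clec4d (r = 0.989), Runx2 (r = 0.989) and Prg4 (r = 0.988). Serpinf1 was closest to Ranbp1 and Gpc4 among the genes reported, and Serpine2 to H3f3a, Lars and Psma4. Plaur was closest to Thra, Loxl1 and Grasp, and Plat to AABR07031480.1, Lyplal1 and Commd6. Plau was closest to Insig2, Ahi1 and Rnf185, and Tfpi to Rc3h2, Pip4p2 and Cbfb. The libraries share their group and depth, r ignores the size of the change, and with 6 points some of 8874 genes will lie near 1, so these are descriptions only. Gpr176 differed by 0.29 and Rpl10 by 0.16 on the log2 scale, less than F3 did.

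RefSeq promoter sequence (assembly GRCr8, which is not the unnamed build of the table) was matched by symbol for 6 of the 8 genes, not for F3 and Plat. Shown are the 250 bases before the annotated start of the 3 matched genes whose groups did not overlap, and of Plaur as the one further gene with an AP-1 match. Capitals mark matches, on either strand, to any of 5 motifs searched: AP-1, spelled TGANTCA; TEAD, spelled GGAATG; Sp1, spelled GGGCGG; the TATA box, searched as TATAAA; and the CArG box of SRF. The lines read 5′ to 3′ along the gene's strand.
Tfpi2 (chr4:32941277-32941526, minus strand): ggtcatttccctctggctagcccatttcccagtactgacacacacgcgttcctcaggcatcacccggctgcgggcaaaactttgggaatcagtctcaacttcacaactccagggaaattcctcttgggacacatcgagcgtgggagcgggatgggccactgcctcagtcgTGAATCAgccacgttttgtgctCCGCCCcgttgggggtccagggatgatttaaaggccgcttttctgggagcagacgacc
Serpine2 (chr9:88637203-88637452, minus strand): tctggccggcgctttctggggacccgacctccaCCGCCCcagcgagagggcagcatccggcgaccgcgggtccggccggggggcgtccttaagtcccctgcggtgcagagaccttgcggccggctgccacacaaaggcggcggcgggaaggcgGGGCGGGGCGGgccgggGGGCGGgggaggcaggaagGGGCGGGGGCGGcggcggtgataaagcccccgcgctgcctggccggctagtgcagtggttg
Serpinf1 (chr10:60760899-60761148, minus strand): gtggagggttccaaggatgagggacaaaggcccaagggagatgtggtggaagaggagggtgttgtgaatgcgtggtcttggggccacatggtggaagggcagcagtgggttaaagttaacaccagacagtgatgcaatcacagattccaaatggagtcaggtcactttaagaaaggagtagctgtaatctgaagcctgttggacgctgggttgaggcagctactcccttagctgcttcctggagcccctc
Plaur (chr1:89181113-89181362, plus strand): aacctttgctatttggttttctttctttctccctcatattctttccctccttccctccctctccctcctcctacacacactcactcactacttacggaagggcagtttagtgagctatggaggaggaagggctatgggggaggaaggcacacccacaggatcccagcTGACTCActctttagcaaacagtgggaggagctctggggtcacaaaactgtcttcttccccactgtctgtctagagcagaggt

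The Tfpi2 window held 1 AP-1 match, TGAATCA, from 80 to 74 bases before the start, and 1 Sp1 match. The Plaur window held TGACTCA from 83 to 77 bases before the start, a like position in a gene whose levels overlapped between the gels. TGANTCA occurs in 6.34% of 33469 rat promoter windows of this length. Serpine2 held 6 Sp1 matches, of which 2 share a base, where 30.5% of windows hold at least 1, and Serpinf1 held none of the motifs. GGAATG, which 12.1% of windows hold, was found in 1 of the 2 Tfpi windows and in no other. TATAAA (12.9% of windows) and the CArG box (1.497%) were not found in these 7 windows of 6 genes. A match describes letters in the window and not a bound site.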

How the data were processed

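PolyA RNA of 3 Stiff and 3 Soft libraries was read from 1 table of FPKM per gene. The library kit was QIAseq FX Single Cell, per the labels' protocols. The FPKM were computed by the authors; tools listed in the submitters' processing notes are Cufflinks 2.1.1, HTSeq and Bowtie 0.12.9, and its builds are those of mouse (mm10, GRCm38), although the deposited table holds rat Ensembl identifiers. How strand and multiply mapped reads were handled is not stated. Reads were recovered because each value times its gene's length is a whole multiple of the library's step (100% within 0.0001).

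Genes averaging 1 FPKM or more were compared on log2(FPKM + 1) with limma 3.58.1 (R 4.3.3), modelling group alone with a mean-dependent variance, two-sided, and Benjamini-Hochberg adjustment over all 12713 genes; called means an adjusted p under 0.05. Differences on this scale understate changes of low genes. Ratios of Stiff to Soft for a gene are of mean FPKM, and ratios between genes were taken within each library and then averaged. With 3 against 3 libraries the smallest two-sided p an exact permutation test allows is 0.1. Libraries of a group never agreed within sampling noise (chi-square per degree of freedom at least 3.57).

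The members and lists were chosen with earlier results of these data known. Named were all 8 members, called genes of each role list or its 2 most abundant, Lrp1, the 3 most abundant of each marker list, and 3 genes of like pattern per member; some genes are not reported here and were left out of the role lists. Of the erythroid and platelet list, 1 of 7 genes in the table passed the filter, Pf4, at 427 ± 21.5 FPKM in Stiff and 414 ± 16.1 in Soft, followed by Itga2b and Alas2 under 1 FPKM. The most abundant endothelial markers were Egfl7 (7.62 ± 1.27 and 5.97 ± 0.576 FPKM), Tie1 and Vwf. Genes with near-identical copies, such as Rpl10 and H3f3a, are uncertain; no member had another gene within 2 kb.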

Additional observations from a re-analysis of the deposited data

How the results depend on the processing

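The count of 182 called genes became 92 with no level filter, 112 with no trend in the variance, 685 with array weights, 317 with voom on recovered reads and 105 with the replicate block, and 26 to 159 with 1 library left out. Of the 8 members, 2 were called with array weights and 2 with voom (F3 and Tfpi2 in both), and 0 to 2 with 1 library left out: 2 without Soft replicate 1 and 0 without any other library. The array weights were uneven, at 3.62 for Soft replicate 3, 0.329 for Soft replicate 1 and 0.659 to 1.495 for the rest. That setting therefore leaned on Soft replicate 3 and gave little weight to Soft replicate 1. F3 was called in all 9 alternatives that kept the 6 libraries, with differences from 0.47 to 0.54, and Tfpi2 stayed between -0.54 and -0.37 in all alternatives. Plau, Plat, Plaur and Tfpi changed sign under some, and the cause was not tested. Of the pathway genes, 5 were called, against 3 with no trend in the variance, 10 with array weights, 8 with voom and 1 to 4 with 1 library left out. Anxa2 reversed to -0.0167 with FPKM sums made equal and to -0.11 by quantile normalization, which took P4hb to -0.0144; neither was called. Scaling to equal sums moved the median of all genes to -0.04.

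Same-numbered libraries had correlations of their deviations from the group means of 0.06, 0.12 and -0.08, and differently numbered ones from -0.18 to 0.14. Over all genes no pairing by replicate number was thus seen, but such correlations cannot show that no libraries were paired. With the replicate block the SE fell from 0.0899 to 0.0547 for Plaur and from 0.0625 to 0.0451 for F3. Among the members it rose only for Serpinf1, from 0.0536 to 0.0542. With the block, 1 member and 4 pathway genes were called. With 3 libraries per group, leaving out 1 also removes a degree of freedom. Plau, at 137 to 188 reads, is the member that depth limits most.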
